A study of Mus musculus with 8 samples.

Results

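The interferon-inducible genes of the Ifi200 family and the sensors of cytosolic nucleic acid were described together across 4 groups of sorted mouse embryo cells. The rule named 9 genes, Ifi203, Ifi204, Ifi205, Aim2, Zbp1, Ddx58, Ifih1, Dhx58 and Tmem173, and took every non-control probe that the array files call by one of these names. It found 14 probes of 39429 on the array. They cover 8 of the 9 names, of 31829 names in the array files, since no probe is called Ifi205. All values come from Tg(Ly6a-GFP) conceptuses, which had transgenic fathers and C57BL/6 x 129S1/SVImJ F1 mothers and were taken at E10.5. Green fluorescent protein (GFP) in them is made from the Ly6a promoter. Ly6a is the gene of the surface antigen Sca-1. The dissected tissue, abbreviated A+U+V in the labels, came from 100 pooled embryos, labelled male, and was sorted into 4 groups. Cells of hematopoietic clusters, called cluster cells here, were sorted as 30000 GFP+ and 130000 GFP- cells on the markers CD31+, VEC+, ESAM+ and Kit+. Endothelial cells, with the same markers but Kit-, were sorted as 70000 GFP+ and 300000 GFP- cells. Each group's RNA was divided in 2 fractions, and every fraction was amplified for an array of its own. The 2 arrays of a group therefore share their embryos and their sort, and every p-value below measures the spread between arrays of divided RNA.

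Cells recognise foreign or misplaced nucleic acid in the cytosol with a small set of sensors. Proteins of the Ifi200 family, called PYHIN proteins, bind DNA, and Aim2 among them assembles an inflammasome through the adaptor Pycard and the protease Casp1. The helicases Ddx58 (RIG-I) and Ifih1 (MDA5) bind double-stranded RNA and signal through Mavs, and Dhx58 (LGP2) modulates them. Zbp1 binds Z-form nucleic acid and engages Ripk3, and Tmem173 (STING) relays the signal of the cyclic dinucleotide made by Cgas. Most of these genes are themselves raised by interferon, and interferon signalling is known to act in the embryo while blood stem cells first form.

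A level here is the log2 processed signal of a probe minus the 75th percentile of its array, so levels compare groups within a probe and not one probe with another. The scanner software marked 54.62% to 63.69% of probes per array as well above background, and precision is limited by having 8 arrays. The endogenous Ly6a gene, whose promoter drives the GFP of the gates, was at -0.53 in GFP+ against -3.91 in GFP- cluster cells, and at 0.39 in GFP+ against -3.67 in GFP- endothelial cells. Kit, the marker that separates the cell classes, was at 2.87 in GFP+ and 1.98 in GFP- cluster cells. In endothelial cells, sorted as Kit-, it was at 1.32 in the GFP+ and 1.34 in the GFP- group. The defining endothelial genes Cdh5, Pecam1, Kdr and Tie1 were well above background on all 8 arrays, also in cluster cells. Markers of other cell types moved with the groups. The summed linear level of 20 macrophage and myeloid markers was 41.1 to 42.3 on GFP+ against 14.7 to 15.2 on GFP- cluster cell arrays, and 14.8 to 15.4 on GFP+ against 7.27 to 7.30 on GFP- endothelial arrays. Of these 20 genes, 19 were called higher by GFP in cluster cells and 18 in endothelial cells. Their defining members Adgre1, C1qa, C1qb and Csf1r were measured in every group, while Cd68 was not well above background on either GFP- endothelial array. The summed level of 18 erythroid markers was 150 to 151 on GFP+ against 1130 to 1150 on GFP- cluster cell arrays, and 163 to 170 on GFP+ against 746 to 770 on GFP- endothelial arrays. On cluster cell arrays 15 general blood cell markers summed to 73.8 to 75.1 on GFP+ and 30.6 to 31.1 on GFP- ones. On endothelial arrays the sums were 23.6 to 24.1 and 21.3 to 22.5. The 10 megakaryocyte and platelet markers summed to 13.5 to 13.6 on GFP+ against 6.93 to 6.94 on GFP- cluster cell arrays. On endothelial arrays they ran the other way, 11.3 to 11.9 against 22 to 22.1. The 14 mesenchyme and smooth muscle markers had lower sums with GFP in both cell classes. The part of cells of these kinds in the results below was not tested.

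A probe was tested where 1 or more groups had both of their arrays well above background, which left 8 of the 14, 1 for each gene. GFP+ cluster cells had higher levels of Ifi203, Ifi204, Aim2, Ddx58, Ifih1 and Dhx58 than GFP- cluster cells and a lower level of Tmem173. That is 6 of 8 called higher and 1 lower at a Benjamini-Hochberg adjusted p under 0.05 in limma's fit, against 11.7% of all 24359 probes tested called higher, 19.8% lower and 31.4% in either direction. Without Ifi203 it was 5 of 7 higher and 1 lower. GFP+ endothelial cells had higher Ifi204, Ddx58 and Ifih1 and lower Tmem173 than GFP- endothelial cells. The fit also called Ifi203, which was measured on 1 of the 4 endothelial arrays, so that no direction is given for it. With it 4 of 8 were called higher and 1 lower, and without it 3 of 7 and 1, against 17.8% of all probes higher, 33.7% lower and 51.5% in either direction. Of all probes called there, 34.6% were higher, and 46.7% were with quantile normalization. The median log2 difference of the 8 members was 0.63 in cluster cells and 0.54 in endothelial cells, and without Ifi203 it was 0.59 and 0.14. All probes had medians of -0.071 and -0.129. Ifi203 entered the test only through the GFP+ cluster cells, so its place among the higher members is fixed in part by the filter. The other 7 probes were well above background on all 8 arrays. In pooled sorted RNA, fewer cells that carry a transcript and less transcript per cell cannot be told apart.

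**Figure D1:**
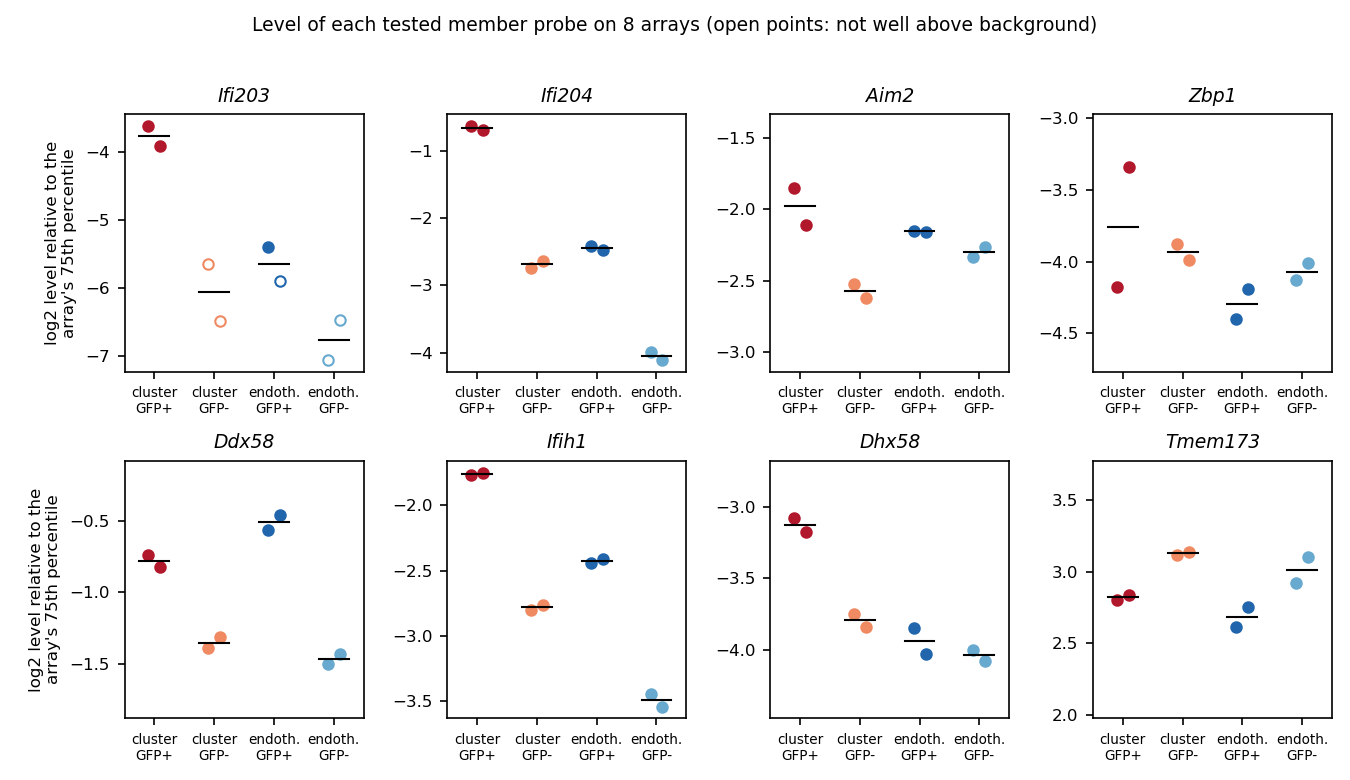
Log2 level relative to the array's 75th percentile of the 8 tested member probes, 1 panel per gene with its own vertical axis. Points are single arrays, open where the probe was not well above background, and bars are the means of 2 arrays. Ifi204 and Ifih1 have their highest points in GFP+ cluster cells and their lowest in GFP- endothelial cells, and Ddx58 has its highest in GFP+ endothelial cells.

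**Figure D2:**
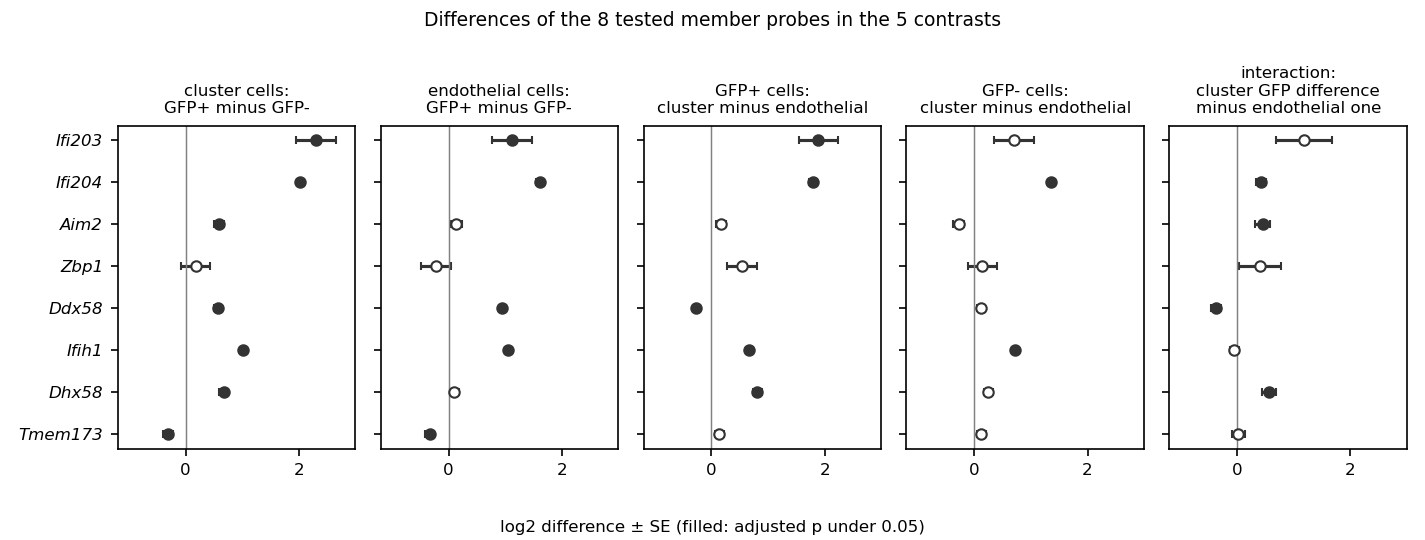
Log2 differences ± SE of the same 8 probes in the 5 contrasts of 1 limma fit, with filled points for an adjusted p under 0.05. Ifi204 lies at 2.03 and 1.61 by GFP, Ifi203 is drawn at its fitted values although it was not well above background in GFP- cells, and Tmem173 lies left of 0 by GFP in both cell classes.

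Ifi204, a DNA-binding PYHIN protein that is the mouse gene most often set beside human IFI16, had a probe at 175677647 to 175677706 on chromosome 1 (mm9, minus strand). Its levels were -0.63 and -0.69 in GFP+ against -2.74 and -2.64 in GFP- cluster cells, and -2.41 and -2.48 in GFP+ against -3.99 and -4.11 in GFP- endothelial cells. No 2 groups overlapped. The order ran from GFP+ cluster cells through GFP+ endothelial and GFP- cluster cells to GFP- endothelial cells, and the step between the middle groups was 0.24, with the larger SD of the pair at 0.069. By GFP, Ifi204 was 4.08-fold higher in cluster cells (log2 difference 2.03 ± 0.066 SE, adjusted p = 3.94e-05) and 3.04-fold higher in endothelial cells (1.61 ± 0.066, adjusted p = 0.000111). By cell class it was higher in cluster cells both among GFP+ cells (1.79 ± 0.066, adjusted p = 4.28e-05) and among GFP- cells (1.36 ± 0.066, adjusted p = 0.000301). Each of these 4 differences was past the threshold in every alternative that left out 1 array. Within slide 1 and slide 2 the GFP difference was 2.11 and 1.95 in cluster cells and 1.58 and 1.63 in endothelial cells. The macrophage marker sum was 41.1 to 42.3 in GFP+ cluster cells against at most 15.4 in the other groups. The general blood marker sum was 73.8 to 75.1 against at most 31.1, and the part of either in the Ifi204 levels was not tested.

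Ifi203, another PYHIN gene, had 4 probes on the minus strand of chromosome 1, and only the one at 175850536 to 175850595 was tested. That probe was read at -3.61 and -3.90 in GFP+ cluster cells, and at -5.64 and -6.48, not well above background, in GFP- cluster cells. In endothelial cells it was at -5.40 and -5.89 in the GFP+ group, where only the first was well above background, and at -7.06 and -6.47 in the GFP- group, both not well above background. GFP+ cluster cells thus stood above all other arrays. Against the lowest level measurable on GFP- cluster cell arrays, Ifi203 was at least 2.73-fold higher in GFP+ cluster cells. With the unmeasured GFP+ endothelial array at its lowest measurable level, it was at least 2.76-fold higher in GFP+ cluster than in GFP+ endothelial cells. Only 1 of the 2 GFP+ endothelial arrays measured it. These bounds were not tested. The adjusted p-values, 0.00561 and 0.00695, are those of limma's fitted differences of 2.3 and 1.89, which use readings not well above background. The probe also passed the filter only through GFP+ cluster cells, where it is high, so these p-values are no independent support. In endothelial cells the fit called the GFP difference at an adjusted p of 0.0404, but the GFP+ mean of -5.65 lay below what GFP- arrays could measure, so neither a fold nor a direction is given. Normexp background correction turned the sign of the fitted difference (-1.08). The call was lost with no filter on dim probes (adjusted p = 0.084), without either GFP+ cluster cell array (adjusted p = 0.0589 each), without the first or second GFP+ endothelial array (0.166 and 0.058) and without the first or second GFP- endothelial array (0.177 and 0.0559).

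Of the other Ifi203 probes, the one at 175854206 to 175854265, 3610 bases upstream of the tested probe, was well above background on 1 array only. It was read at -3.84, well above background, and -4.97, not, in GFP+ cluster cells, and at -6.80 and -7.09 in GFP- cluster cells. The probes at 175851818 to 175851877 and at 175852372 to 175852430 were not well above background on any array, between -6.78 and -8.50. The 4 probes of this gene therefore do not read alike, and only 1 of them carries the Ifi203 result. The tested probe holds the hexamer AATAAA, the form of the common polyadenylation signal, in capitals here in its last 30 bases, chr1:175850536-175850565 (mm9, minus strand), a hexamer found in 12.6% of the 39429 probe sequences:
Ifi203 tested probe: ttgcatctAATAAAgtttcactggttctat

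The Ifi200 genes lie side by side on chromosome 1, and their promoters are shown to set their sequences side by side. The interferon-stimulated response element, bound by Stat and Irf factors, has the core GAAANNGAAA, which was searched on both strands from 250 bases before to 50 after each start in the RefSeq promoter table (GRCm38.p6). It was in 3.44% of 32851 windows, and within the 100 bases before the start in 0.983%. Of the 9 members, Tmem173 was left out of this search, and no entry was found for Ifi204, Zbp1 and Dhx58. The other 5 had an entry in the table. Among those, 4 held a match, Ifi203, Ifi205, Ddx58 and Ifih1, while Aim2 held none. Of 9 other genes of the family all had an entry and 7 held a match within 100 bases before a start, with Ifi202b and Ifi209 as those without. Below, matches are in capitals, and all but Ifi205 show the 60 bases before the start:
Ifi203 second start, chr1:173942493-173942552, minus strand: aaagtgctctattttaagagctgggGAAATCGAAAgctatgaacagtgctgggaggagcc
Mndal, chr1:173880188-173880247, minus strand: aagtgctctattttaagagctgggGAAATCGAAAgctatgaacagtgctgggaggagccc
Ifi207, chr1:173741810-173741869, minus strand: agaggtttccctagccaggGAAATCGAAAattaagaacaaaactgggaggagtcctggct
Ifi211, chr1:173913047-173913106, minus strand: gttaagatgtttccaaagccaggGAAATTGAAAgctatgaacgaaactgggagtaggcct
Ifi205, bases -150 to -91, chr1:174031846-174031905, minus strand: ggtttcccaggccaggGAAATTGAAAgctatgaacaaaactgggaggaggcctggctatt
Ifi202b, chr1:173982845-173982904, minus strand: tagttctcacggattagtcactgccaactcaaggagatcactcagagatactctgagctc
Moved by 1 base, the Ifi203 and Mndal stretches were identical at 59 of 59 bases, and Ifi203 and Ifi211 shared 39 of 58 bases. Ifi203 shared 21 of 60 bases with Ifi207 and 24 of 59 with Ifi202b. Only shifts of a few bases were tried for these counts. The core begins at -35 in Ifi203 and at -41 in Ifi207, so the count for Ifi207 does not lay the cores over each other. It is therefore no measure of how alike these stretches are. The first annotated start of Ifi203 held no match. A match is a run of letters and was not tested for binding here.

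The rest of the family gives the setting of these members on chromosome 1. The array held probes of 8 other family genes and 5 were tested by their brightest probe, namely Ifi202b, Ifi207, Ifi208, Ifi211 and Mndal. Of the other names listed, 2 clone names matched genes elsewhere and were dropped. Between GFP+ and GFP- cells 3 of the 5 were called higher in cluster cells and 2 in endothelial cells, with none lower. The medians were 1.61 and 0.18. Mndal and Ifi211 entered the test only through GFP+ cluster cells, so their fitted differences there are fixed in part by the filter. Ifi202b, Ifi207 and Ifi208 were measured on all 8 arrays. Of these, Ifi202b and Ifi207 were called higher by GFP in both cell classes, and Ifi208 in neither. Of all 19469 genes read by their brightest probe, 11.7% were called higher and 20.6% lower in cluster cells, and 18.1% higher and 33.4% lower in endothelial cells. Ifi207 had levels of -1.26 and -1.27 in GFP+ against -3.32 and -3.42 in GFP- cluster cells, and of -2.80 and -2.98 in GFP+ against -4.94 and -5.06 in GFP- endothelial cells. Its GFP difference was 2.10 ± 0.080 in cluster and 2.11 ± 0.080 in endothelial cells. These values are those of the brightest Ifi207 probe, and a second one, well above background on 2 arrays only, was not tested. Ifi202b, which encodes a PYHIN protein with no pyrin domain, was higher by GFP with both probes, by 1.71 and 1.61 in cluster cells and by 1.54 and 2.28 in endothelial cells.

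Mndal, whose promoter stretch is the one identical to that of Ifi203, was read at -3.30 and -3.56 in GFP+ cluster cells and at -5.08 and -5.25 in GFP- ones, the last not well above background. In endothelial cells its levels were -5.31 and -5.42 in the GFP+ group and -5.22 and -5.39 in the GFP- group, and only the first of these 4 was well above background. Its fitted GFP difference was 1.73 ± 0.12 in cluster cells (adjusted p = 0.000322), and in endothelial cells no fold can be given. The second GFP- cluster cell array did not measure Mndal, so the fitted size is not one between measured levels. Mndal also entered the test only through the GFP+ cluster cells, where it is high. Ifi208 did not pass by GFP with either tested probe, at -0.42 and 0.09 in cluster cells and at 0.11 and 0.18 in endothelial cells. Its other probes were not well above background on any array. The promoter window of Ifi208 held a match and that of Ifi202b held none, and a link between matches and levels was not tested. Ifi206, Ifi209 and Ifi214 had no tested probe. Ifi205 itself could not be read: the probe called Mnda in the files, at 175826600 to 175826659, lists RefSeq accessions of both Ifi211 and Ifi205. It is at -4.45 and -4.44 in GFP+ cluster cells and at -5.86 and -5.16, not well above background, in GFP- ones (adjusted p = 0.104). No member probe shared a run of 14 or more bases with a probe of another gene of the family, and transcripts were not compared.

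**Figure D3:**
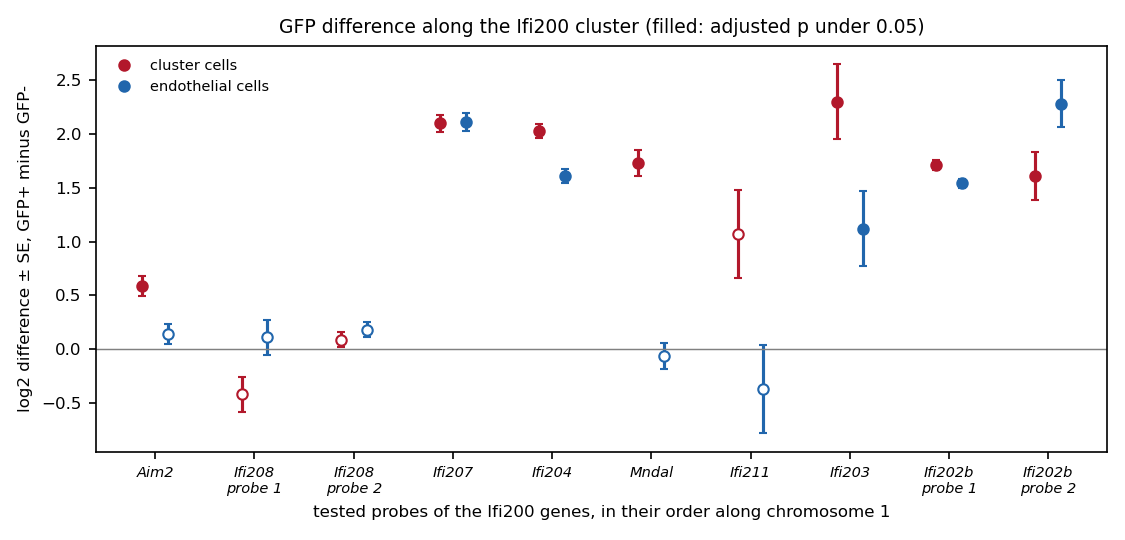
Log2 difference ± SE between GFP+ and GFP- cells for the 10 tested probes of the Ifi200 genes in their order along chromosome 1, in cluster cells and in endothelial cells. Ifi207, Ifi204 and Ifi202b are raised in both cell classes, and Aim2 and Mndal have filled points in cluster cells alone. Ifi203, Ifi211 and Mndal are drawn at fitted values although most arrays outside GFP+ cluster cells did not measure them.

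Aim2, at the edge of the same family region with a probe at 175396036 to 175396095 (plus strand), had smaller differences. Levels were -1.85 and -2.11 in GFP+ against -2.52 and -2.62 in GFP- cluster cells, and -2.15 and -2.16 in GFP+ against -2.33 and -2.26 in GFP- endothelial cells. The cluster cell groups lay at the ends of the range with the endothelial groups between them. By GFP, Aim2 was 1.51-fold higher in cluster cells (0.59 ± 0.093, adjusted p = 0.00647), and the difference of 0.14 ± 0.093 in endothelial cells did not pass (adjusted p = 0.257). Neither difference between the cell classes passed, at 0.17 among GFP+ cells (adjusted p = 0.172) and -0.28 among GFP- cells (adjusted p = 0.0816). On slides 1 and 2 the GFP difference in cluster cells was 0.67 and 0.51. Without the second GFP+ cluster cell array the difference among GFP+ cells passed at 0.30 (adjusted p = 0.0298), and without either GFP+ cluster cell array that among GFP- cells passed at -0.28 (adjusted p = 0.0353 each). For comparison with the promoters above, the 60 bases before the Aim2 start hold no response element core:
Aim2, chr1:173420544-173420603, plus strand: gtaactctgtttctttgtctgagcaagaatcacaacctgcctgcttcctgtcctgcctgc

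Zbp1, the Z-nucleic acid sensor that can start necroptosis, was the 1 tested member with no call in any of the 5 contrasts. Its probe at 173039307 to 173039366 on chromosome 2 (mm9, minus strand) was read at -4.18 and -3.34 in GFP+ against -3.88 and -3.99 in GFP- cluster cells, and at -4.40 and -4.19 in GFP+ against -4.13 and -4.01 in GFP- endothelial cells. The 2 GFP+ cluster cell arrays differed more from each other than any 2 groups did in their means. The GFP difference was 0.18 ± 0.26 in cluster cells (adjusted p = 0.662) and -0.22 ± 0.26 in endothelial cells (adjusted p = 0.5). The second GFP+ cluster cell array decides the sign in cluster cells: without it the difference was -0.24 (adjusted p = 0.201), and without the first it was 0.60 (adjusted p = 0.0278). The slides gave -0.30 and 0.65. Among GFP+ cells the difference between cluster and endothelial cells, 0.54 ± 0.26 (adjusted p = 0.138), became 0.96 without the first GFP+ cluster cell array (adjusted p = 0.00508).

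The sequence of that Zbp1 probe bears on how far it can be read. Over its 60 bases it matched 20 of the 32851 promoter windows at 42 or more positions without gaps, and up to 51, while of the other 13 member probes only that of Aim2 reached 42, in 1 window. The bases shared by the Zbp1 probe and its most similar window, that of the predicted gene Gm52866 on chromosome 6 (GRCm38.p6), are in capitals for 30 bases of the probe, chr2:173039328-173039357 (mm9, minus strand). They are of the kind found in the short interspersed repeats that occur throughout the mouse genome:
Zbp1 tested probe: CTTGAACcCACAGAGATCTtCtTGCTTCTG
Gm52866 window: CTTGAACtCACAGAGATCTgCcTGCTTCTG
The other Zbp1 probe, 6989 bases downstream at 173032258 to 173032317, was not well above background on any array, at -6.51 and -6.88 in GFP+ cluster cells and between -7.03 and -8.07 in the other groups. Whether the signal of the tested probe comes from Zbp1 transcripts alone was not tested.

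Ddx58, the receptor of short double-stranded RNA with a 5′ triphosphate end, was highest in GFP+ endothelial cells. Its probe at 40151893 to 40151952 on chromosome 4 (mm9, minus strand) had levels of -0.74 and -0.82 in GFP+ against -1.39 and -1.31 in GFP- cluster cells, and of -0.56 and -0.46 in GFP+ against -1.50 and -1.43 in GFP- endothelial cells. No 2 groups overlapped, and the GFP+ groups both stood above the GFP- groups. By GFP it was 1.48-fold higher in cluster cells (0.57 ± 0.064, adjusted p = 0.00196) and 1.93-fold higher in endothelial cells (0.95 ± 0.064, adjusted p = 0.000381). Among GFP+ cells Ddx58 was lower in cluster than in endothelial cells (-0.27 ± 0.064, adjusted p = 0.0171). That difference was no longer called without the second GFP+ cluster cell array (-0.23, adjusted p = 0.0777), without the second GFP+ endothelial array (-0.22, adjusted p = 0.0818), with no filter on dim probes (adjusted p = 0.0514) and with only the compared groups in the fit (adjusted p = 0.0523). Among GFP- cells the difference of 0.11 ± 0.064 did not pass (adjusted p = 0.258). The macrophage and general blood marker sums were 41.1 to 42.3 and 73.8 to 75.1 in GFP+ cluster cells. They were 14.8 to 15.4 and 23.6 to 24.1 in GFP+ endothelial cells, and their part in the Ddx58 levels was not tested.

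A second Ddx58 probe lies 700 bases downstream, at 40151133 to 40151192, and was not well above background on 7 of 8 arrays, the exception being the first of the GFP+ endothelial arrays at -4.89. Both probes hold AATAAA, in capitals in their last 30 bases, chr4:40151893-40151922 for the tested one and chr4:40151133-40151162 for the other (mm9, minus strand):
Ddx58 tested probe: ctctagctattttcAATAAAggctcatgtt
Ddx58 downstream probe: ttagtgcAATAAAatgaatttgccgagagc
Each probe thus holds a hexamer of its own, and the upstream probe gave the signal on all 8 arrays.

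Ifih1, which senses long double-stranded RNA, had the same order of groups as Ifi204. Its probe at 62435507 to 62435566 on chromosome 2 (mm9, minus strand) was read at -1.77 and -1.75 in GFP+ against -2.80 and -2.76 in GFP- cluster cells, and at -2.44 and -2.41 in GFP+ against -3.44 and -3.54 in GFP- endothelial cells. Every step of that order was larger than the SD of the groups, the smallest being 0.35 between GFP+ endothelial and GFP- cluster cells. By GFP, Ifih1 was 2.02-fold higher in cluster cells (1.01 ± 0.053, adjusted p = 0.000137) and 2.09-fold higher in endothelial cells (1.06 ± 0.053, adjusted p = 0.00018). By cell class it was 0.67 ± 0.053 higher in cluster cells among GFP+ cells (adjusted p = 0.000405) and 0.71 ± 0.053 higher among GFP- cells (adjusted p = 0.00118). A second probe 487 bases downstream, at 62434960 to 62435019, was not well above background on any array, between -6.41 and -8.09. The tested probe holds AATAAA in its last 30 bases, chr2:62435507-62435536, and those of the downstream probe, chr2:62434960-62434989 (mm9, minus strand), do not:
Ifih1 tested probe: aactgcaagctacAATAAAtcatttcttcc
Ifih1 downstream probe: ctacgcattatagcagctgttttgtatgcc

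Around their starts both helicase genes held the response element core just inside the transcript, at base 3 in Ddx58 and at base 33 in Ifih1 counting the start as base 1. The 30 bases around the matches are from chr4:40239804-40239833 and chr2:62646206-62646235 (GRCm38.p6, minus strand), with the match in capitals; in Ddx58 it reads on the other strand:
Ddx58: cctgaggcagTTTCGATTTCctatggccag
Ifih1: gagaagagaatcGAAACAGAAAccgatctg

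Dhx58, the helicase that lacks the signalling domains of the other two, was set apart in GFP+ cluster cells. Its probe at 100556271 to 100556330 on chromosome 11 (mm9, minus strand) was read at -3.08 and -3.18 in GFP+ against -3.75 and -3.84 in GFP- cluster cells, and at -3.85 and -4.03 in GFP+ against -4.0 and -4.08 in GFP- endothelial cells. The endothelial groups overlapped, and GFP+ cluster cells lay above all other arrays. By GFP it was 1.59-fold higher in cluster cells (0.67 ± 0.082, adjusted p = 0.00264), and the difference of 0.10 ± 0.082 in endothelial cells did not pass (adjusted p = 0.328). Among GFP+ cells Dhx58 was 1.75-fold higher in cluster than in endothelial cells (0.81 ± 0.082, adjusted p = 0.000847). Among GFP- cells the difference of 0.25 ± 0.082 did not pass (adjusted p = 0.0824), but it did with the slide, which the replicate number marks, as a block (adjusted p = 0.0259).

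Tmem173, the endoplasmic reticulum protein STING that answers the second messenger of Cgas, was the 1 member called lower by GFP. Its probe on chromosome 18 was read at 2.80 and 2.84 in GFP+ against 3.12 and 3.14 in GFP- cluster cells, and at 2.61 and 2.75 in GFP+ against 2.92 and 3.10 in GFP- endothelial cells. Both GFP+ groups lay below both GFP- groups. It was lower by GFP in cluster cells (-0.31 ± 0.081, adjusted p = 0.034) and in endothelial cells (-0.33 ± 0.081, adjusted p = 0.0193), a 1.24-fold and a 1.26-fold difference. The medians of all probes in these comparisons were -0.071 and -0.129, and with quantile normalization both differences were -0.21 and did not pass (adjusted p = 0.0903 in cluster and 0.0653 in endothelial cells). Nor did they pass with no filter on dim probes (0.104 and 0.0552), or in endothelial cells with only the compared groups in the fit (0.0615). Leaving out any 1 of the 4 cluster cell arrays ended the call in cluster cells, at -0.29 and -0.33 without the first and second GFP+ array and at -0.32 and -0.30 without the first and second GFP- array. In endothelial cells the call ended without the first GFP+ array (-0.26) and without the second GFP- array (-0.24). Between the cell classes Tmem173 did not pass, at 0.14 among GFP+ and 0.12 among GFP- cells (adjusted p = 0.199 and 0.318).

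Between the cell classes, GFP+ cluster cells had higher Ifi203, Ifi204, Ifih1 and Dhx58 and lower Ddx58 than GFP+ endothelial cells. These are 4 of 8 members called higher and 1 lower, or 3 of 7 and 1 without Ifi203, against 27.2% of all probes higher, 23.3% lower and 50.5% in either direction. The members' median difference was 0.60, or 0.54 without Ifi203, where that of all probes was 0.042. Among GFP- cells, 2 of 8 members, Ifi204 and Ifih1, were called higher in cluster cells and none lower, against 11.9% of all probes in each direction and 23.8% in either. The medians were 0.20 for the members, 0.14 without Ifi203, and 0.009 for all probes. Ifi203 was not well above background in either GFP- group, so no difference is given for it there. The comparisons by class share their arrays with those by GFP.

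The difference between the GFP contrasts was itself tested as an interaction, the GFP difference in cluster cells minus that in endothelial cells. It was called for 4 of 8 members, 3 higher and 1 lower, against 16.2% of all probes higher, 14.7% lower and 30.9% in either direction. The members' median was 0.41 and that of all probes 0.055. The GFP difference was larger in cluster cells for Dhx58 (0.56 ± 0.12, adjusted p = 0.0184), Aim2 (0.45 ± 0.13, adjusted p = 0.0486) and Ifi204 (0.42 ± 0.093, adjusted p = 0.0223), and larger in endothelial cells for Ddx58 (-0.38 ± 0.091, adjusted p = 0.0277). For Ifih1 the interaction was -0.05 ± 0.075 (adjusted p = 0.663) and for Tmem173 0.02 ± 0.11 (adjusted p = 0.930). That of Ifi203, 1.18 ± 0.49, did not pass (adjusted p = 0.121) and rests on groups in which the probe was not well above background. With quantile normalization Aim2 (adjusted p = 0.0649) and Dhx58 (0.12) were not called, and Dhx58 was not called with trend and robust moderation (0.0583). With no filter on dim probes none of the 4 was called (0.0634 to 0.124). With any 1 array left out, 0 to 3 members were called. Dhx58 lost its call without the first GFP+ cluster (0.52), the second GFP- cluster (0.52) or the first GFP- endothelial array (0.52). Ifi204 lost it without the first GFP+ cluster (0.40), the first GFP- cluster (0.38), the second GFP+ endothelial (0.39) or the first GFP- endothelial array (0.37). Ddx58 was called only without the first GFP+ cluster or the first GFP+ endothelial array, and took values of -0.33 to -0.42 without each other array. Aim2 was called only without the second GFP+ cluster cell array, and took values of 0.33 to 0.50 without each other array. Within the slides, each of which held 1 array of every group, the interaction had the same sign on both for these 4 genes, at 0.52 and 0.61 for Dhx58, 0.49 and 0.41 for Aim2, 0.52 and 0.32 for Ifi204, and -0.28 and -0.48 for Ddx58.

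The partners of the sensors were read from gene lists by the brightest tested probe of each gene, members left out. The shares of all genes called, 11.7% higher and 20.6% lower in cluster and 18.1% higher and 33.4% lower in endothelial cells, are those given for the family. Inflammasome genes were mostly higher by GFP in cluster cells, 11 of 14 with none lower (median 0.96), and in endothelial cells 7 were higher and 3 lower (median 0.46). Casp1, the protease that Aim2 activates, was higher by 1.88 in cluster and by 1.46 in endothelial cells, and Gsdmd, the pore protein it cleaves, by 1.30 and 1.27. Pycard, the adaptor between Aim2 and Casp1, was higher by 1.19 in cluster cells and at -0.01 in endothelial cells, where it did not pass. The difference between these was called (1.19 ± 0.076, adjusted p = 0.00142). Il1b, the cytokine Casp1 matures, was at least 1.94-fold higher by GFP in cluster cells and at least 2.26-fold higher in endothelial cells. The macrophage marker list, with 19 and 18 of its 20 genes higher in the same comparisons, moved with this one. So did the general blood list, with 14 of 15 genes higher in cluster cells, and 10 higher and 1 lower in endothelial cells.

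DNA sensing and its signalling did not show such a majority. By GFP 3 of 17 genes were higher and 2 lower in cluster cells (median 0.03), and 4 were higher and 6 lower in endothelial cells (median -0.12). Cgas, the enzyme upstream of Tmem173, was higher by 1.19 in cluster and by 0.65 in endothelial cells. Trex1, the exonuclease that removes cytosolic DNA, was higher by 0.31 and 0.20. The kinase Tbk1, downstream of Tmem173, did not pass by GFP, at -0.03 in cluster and 0.05 in endothelial cells. The GFP differences of Tmem173 and Cgas thus had opposite signs in both cell classes. Those of Tmem173 were small, -0.31 and -0.33, and were not called in several alternatives, among them quantile normalization.

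RNA sensing and Mavs signalling was also divided. By GFP 8 of 27 genes were higher and 4 lower in cluster cells (median 0.00), and 12 were higher and 8 lower in endothelial cells (median -0.02). Oas1a, an oligoadenylate synthetase, was higher by 1.92 and 0.95, and the antiviral RNA-binding protein gene Zc3hav1 by 0.69 and 0.61. Mavs itself was at 0.05 in cluster cells, which did not pass, and higher by 0.25 in endothelial cells. Rnf135, a ubiquitin ligase that activates Ddx58, was higher by 0.53 and 0.55. Necroptosis genes around Zbp1 were called higher in 3 and lower in 1 of 12 cases in cluster cells (median 0.11) and higher in 7 with none lower in endothelial cells (median 0.36). Ripk3, the kinase that Zbp1 engages, was among those higher in both, by 0.50 and 0.49. The interferon-response list had 32 of 40 genes higher and 3 lower by GFP in cluster cells (median 0.74) and 34 higher and 2 lower in endothelial cells (median 0.75), such as Oasl1, higher by 1.46 and 1.43, and Psmb9, by 1.75 and 1.5.

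**Figure D4:**
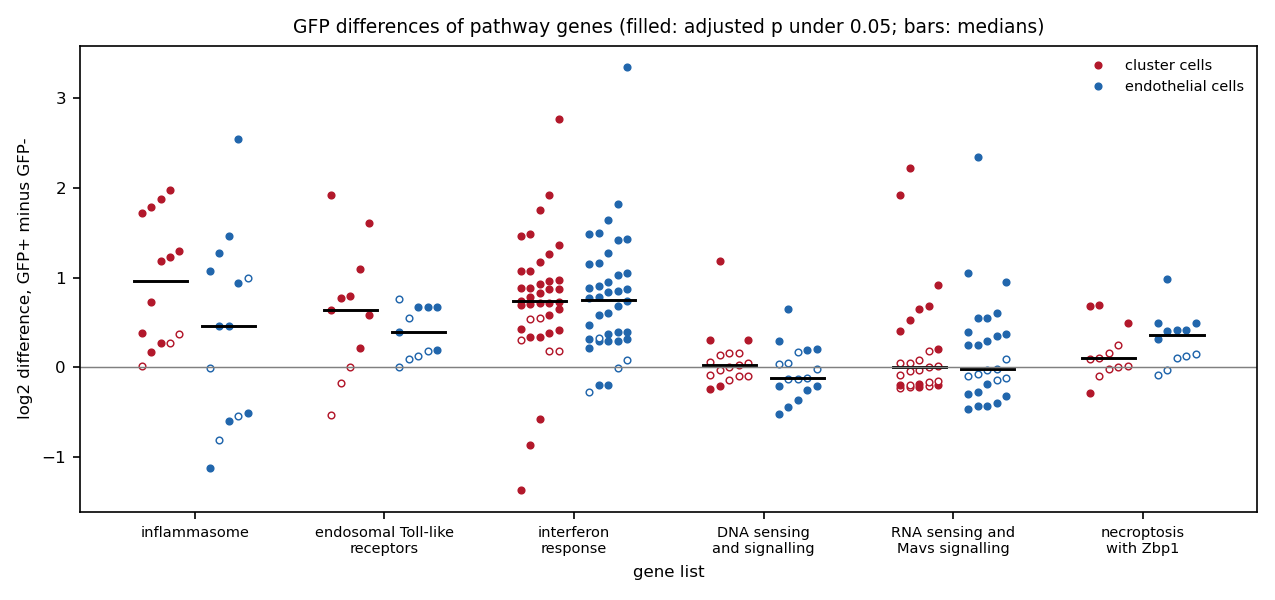
Log2 difference between GFP+ and GFP- cells for the tested genes of 6 lists around the sensors, in cluster cells and in endothelial cells, with filled points for an adjusted p under 0.05 and bars for list medians. The inflammasome, endosomal Toll-like receptor and interferon lists lie mostly above 0, and the DNA and RNA sensing lists have medians near 0.

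The genes most like each member over the 8 arrays were found as those with the smallest root mean square difference of levels, each gene centred on its own mean, among 12467 named genes well above background on all arrays. For Ifi204, whose own SD over the arrays was 1.29, they were Stat4 (0.0963), Ptpre (0.0978) and Alox5ap (0.103). Ddx58, with an SD of 0.422, came closest to Csf1 (0.0372), Stk10 (0.0571) and Fmo5 (0.0644). Ifih1, with an SD of 0.667, came closest to Serpinb6b (0.0507), Grk3 (0.0635) and the monocyte gene Cd14 (0.0964). For Dhx58 (SD 0.386) the 3 nearest were Cmtm7 (0.0491), Ap1g2 (0.0492) and Grk2 (0.0562), for Aim2 (SD 0.244) Pts (0.077), Hars2 (0.0801) and Map7d3 (0.0845), and for Tmem173 (SD 0.196) Troap (0.0491), Kpna2 (0.0529) and Cstf2 (0.0534). Zbp1 had no neighbour closer than 0.121, that of Sec22c, with an SD of 0.316.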

How the data were processed

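RNA of the 4 sorted groups was hybridised to 1-colour Agilent arrays, 2 per group. The intensity values analysed are the processed signals in the deposited scanner output, made with Agilent Feature Extraction 10.10.1.1, per the file headers and the submitters' processing notes. The authors also deposited a table of intensities on a linear scale, not centred on genes, with a median of 198 in every column and a normalization not given in the sources used here. On the log2 scale its columns correlated with the scanner values of their arrays at 0.997 or more, and it served as an alternative.

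From the intensities, log2 of the processed signal minus each array's 75th percentile was taken, 10 probes marked as outliers were removed and spots of a probe were averaged. A probe was kept if both arrays of a group were well above background (24359 of 39429). limma 3.58.1 in R 4.3.3 fitted 4 group means (4 residual degrees of freedom, two-sided), with Benjamini-Hochberg adjustment over all tested probes and a threshold of 0.05. A permutation test of 2 arrays against 2 cannot go below 0.333. Where a group was not well above background, "at least N-fold" sets the bright mean against, per array, the higher of the lowest measurable signal and the probe's own.

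The replicate number marks the slide, and the correlations of replicate differences were 0.127 to 0.344, so a fit with the slide as a block was an alternative. Other alternatives were quantile normalization, normexp background correction, other filters, robust moderation, fewer groups in the fit and leaving out each array. On data simulated for the cluster cell GFP comparison of 24359 probes, 40% of probes changed by 0.5 and 84% of those changed by 1 (log2) were recovered. Only a small part of the simulated probes was changed, while 31.4% of probes were called in the data. These rates therefore do not carry over to the data.

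The members and gene lists were chosen with earlier results of these data known. The text names the members, their family, pathway genes as examples of each list, and the 3 nearest genes by level. Sequences and current gene names come from RefSeq tables (GRCm38.p6) and the array files, and array coordinates are mm9 as the files give them.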

Additional observations from a re-analysis of the deposited data

Results flagged for a closer look

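For 4 members the GFP difference itself differed between cluster and endothelial cells, by the interaction term of limma's fit with Benjamini-Hochberg adjustment. The interaction, cluster minus endothelial, was 0.42 for Ifi204, 0.45 for Aim2, -0.38 for Ddx58 and 0.56 for Dhx58. Ddx58 is the one with the larger GFP difference in endothelial cells. The calls of Aim2 and Dhx58 were lost with quantile normalization (adjusted p = 0.0649 and 0.12) and that of Dhx58 with trend and robust moderation (0.0583), and all 4 were lost with no filter on dim probes (0.0634 to 0.124). Each was also lost without at least 3 of the 8 arrays, left out singly.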

How the results depend on the processing

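Over 707 member values from the alternatives, 601 kept their direction and their side of the threshold. The replicate block, the slide as a term, changed 1 member call: Dhx58 in GFP- cells, cluster against endothelial, at 0.25 with an adjusted p of 0.0259. Normexp background correction ended nearly all calls, with 107 probes by GFP in cluster cells, 71 in endothelial cells, 123 by class in GFP+ cells, 2 in GFP- cells and 0 for the interaction, and 0 members in each. Its 1st percentile of signal was 685 on the second GFP- endothelial array and 56.6 to 75.3 on the others. Resetting the local background of 2 spots of that array, chosen after seeing the data, brought it to 62.6. With the reset 5440 probes and 7 members were called by GFP in cluster cells, and 9478 and 4 in endothelial cells. By class 8900 probes and 4 members were called in GFP+ cells, and 3181 and 2 in GFP- cells. For the interaction 4676 probes and 1 member were called. Under plain normexp the signs turned by GFP in endothelial cells for Ifi203 (-1.08), Ifi204 (-0.07), Aim2 (-0.41), Ifih1 (-0.16) and Dhx58 (-0.90), by class in GFP- cells for Ifi203 (-1.2), Ifi204 (-0.28), Zbp1 (-0.89), Ddx58 (-0.22), Ifih1 (-0.40) and Dhx58 (-0.91), and in the interaction for Ifih1 (0.92) and Tmem173 (-0.27). With the reset, signs turned for Zbp1 by class in GFP- cells (-0.02) and for Ifih1 in the interaction (0.17). Zbp1 in that class comparison was -0.03 with quantile normalization and -0.02 in the authors' table, and each left 2 members in the interaction. With no filter on dim probes 4517 probes were called by GFP in cluster cells, 1699 by class in GFP- cells, with 64.6% of them higher against 49.8%, and 3335 in the interaction, with 3 members by GFP in endothelial cells and 0 in the interaction. With only the compared groups 3032 were called by class in GFP- cells. Leaving out single arrays gave 4326 to 6814 probes and 6 to 7 members by GFP in cluster cells, 3 to 5 members in endothelial cells, 4 to 6 by class in GFP+ cells, 1830 to 5121 probes and 2 to 3 members in GFP- cells, and 4447 to 5709 probes and 0 to 3 members in the interaction. In those fits Zbp1 by GFP in cluster cells took -0.24 to 0.60, and the interactions took -0.02 to 0.82 for Zbp1, -0.10 to 0.01 for Ifih1 and -0.08 to 0.11 for Tmem173. Causes not shown by a value here were not tested. Signal over background limits Ifi203 most, since only its GFP+ cluster cell arrays both measured it.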

Other observations

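Other inflammasome and endosomal receptor genes differed between the cell classes. Among GFP+ cells 8 of 14 inflammasome genes were higher in cluster than in endothelial cells and none lower, and among GFP- cells 6 were higher and none lower. Of all 19469 genes read by their brightest probe, 26.1% were higher and 24.2% lower in cluster cells among GFP+ cells, and 11.6% higher and 12.2% lower among GFP- cells. Pstpip1, an adaptor that binds pyrin, was at least 21.3-fold higher in cluster than in endothelial cells among GFP+ cells and at least 4.91-fold higher among GFP- cells. These bounds were not tested. The adjusted p-values, 1.45e-05 and 0.000342, are those of limma's fitted differences, which use endothelial readings not well above background. Card9, an adaptor of fungal receptors, was at least 3.76-fold higher in cluster cells among GFP+ cells. Of 11 genes of endosomal Toll-like receptor signalling, 8 were higher and 2 lower in cluster cells among GFP+ cells. Unc93b1, which carries these receptors to endosomes, was higher by 1.75 among GFP+ and by 0.81 among GFP- cells, and the RNA receptor Tlr7 by 1.47 and 1.04. Tlr3 was at least 1.79-fold lower in cluster cells among GFP+ cells. The summed macrophage marker level was 41.1 to 42.3 in GFP+ cluster against 14.8 to 15.4 in GFP+ endothelial cells. That of general blood markers was 73.8 to 75.1 against 23.6 to 24.1, and the part of either in these differences was not tested.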
